A study of Homo sapiens with 12 samples.

Results

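The genes of the voltage-gated calcium channels, the voltage-gated sodium channels and the potassium channels were followed across all libraries. Members were chosen by symbol alone, as every gene whose name begins with KCN, CACN or SCN and continues in the form used for channel subunits. This gave 134 members of 60624 genes, of which 94 were potassium, 26 calcium and 14 sodium channel genes. One potassium channel gene that the symbol rule matches was left out of the members.

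Calcium channel pore subunits open on depolarisation and let calcium enter endocrine cells, where it triggers hormone release. Auxiliary subunits set their traffic and gating. Sodium channels carry part of the action potential, and voltage-gated, calcium-activated, inwardly rectifying and two-pore potassium channels repolarise the cell or hold it at rest.

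Transcripts were measured by bulk RNA-seq in islet cells derived from expandable pancreatic progenitors (ePPs) of MEL1, a human embryonic stem cell line. Before differentiation the progenitors grew on feeder cells in medium with EGF, bFGF, 616452 and the BET inhibitor I-BET151. All 12 libraries were collected at day 8 in R6 medium, which held forskolin, the thyroid hormone T3, the BMP inhibitor LDN-193189, the gamma-secretase inhibitor Compound E, the TGF-beta receptor inhibitor 616452, zinc sulfate, heparin and vitamin C. There were 4 groups of 3 libraries, labelled NKX2-2 KO with its own WT and CLEC16A KO with its own WT. NKX2-2 is a homeodomain transcription factor of islet cells and CLEC16A acts in mitophagy.

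Neither targeted gene checks the labels. The NKX2-2 transcript differed by -0.32 on the log2 scale (SE 0.12, adjusted p = 0.0610) in the libraries labelled NKX2-2 KO, and that of CLEC16A by 0.18 (SE 0.09, adjusted p = 0.0949) in those labelled CLEC16A KO. NKX2-2 itself fell in the CLEC16A KO libraries (-0.93, SE 0.07, adjusted p = 3.53e-10). KO in what follows is the label. No clone is named, so a difference between cell lines and an effect of the knockout cannot be told apart. The labels do not say whether replicates are separate cultures, and the spread behind each p-value may therefore be technical. The shallowest and deepest libraries held 16157481 and 20649976 counts for NKX2-2, and 31364272 and 33763795 counts for CLEC16A. Members took 0.145% to 0.186% of counts in NKX2-2 KO libraries, against 0.185% to 0.22% in their WT libraries. The same share was 0.158% to 0.167% in CLEC16A KO libraries and 0.257% to 0.276% in their WT libraries. The libraries numbered 3 stood apart in the NKX2-2 experiment. Of the 102 members tested there, 62 were lowest in KO replicate 3 among KO libraries and 56 in WT replicate 3 among WT libraries.

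The islet label was checked against 16 endocrine markers, all detected. CHGA, a granule protein gene, held most of their sum in the CLEC16A experiment, at 14395 ± 1144 CPM (counts scaled to library size) in KO and 25233 ± 1406 CPM in WT. In the NKX2-2 experiment, where its counts are over 4-fold short of its TPM by comparison, it had 163 ± 15.9 CPM in KO and 480 ± 66.9 CPM in WT. Without CHGA the endocrine markers summed to 2065 to 2246 CPM in NKX2-2 KO and 5443 to 5982 CPM in NKX2-2 WT libraries. They summed to 3157 to 3321 CPM in CLEC16A KO and 6210 to 6318 CPM in CLEC16A WT libraries. Of all 16, 2 were higher and 10 lower with NKX2-2 KO, and 1 was higher and 15 lower with CLEC16A KO. Markers of other cell types moved too, and their part in the results below was not tested. In bulk samples fewer cells of a type and less RNA per cell cannot be told apart. The 12 mesenchyme and smooth muscle markers summed to 6152 to 6839 CPM in NKX2-2 KO and 2464 to 2716 CPM in NKX2-2 WT libraries, and all 11 tested rose. They summed to 72.8 to 78.3 CPM in CLEC16A KO and 196 to 210 CPM in CLEC16A WT libraries, where 9 of 12 fell. The 11 neuron markers summed to 814 to 902 CPM in NKX2-2 KO against 736 to 828 CPM in NKX2-2 WT, with 4 of 10 higher and 2 lower. In CLEC16A KO they summed to 375 to 417 CPM, against 765 to 842 CPM in CLEC16A WT, with 1 of 11 higher and 9 lower. Delta cell markers summed to 517 to 522 CPM in NKX2-2 KO and 84.3 to 96.5 CPM in NKX2-2 WT libraries, and all 4 tested rose, while with CLEC16A KO 2 of 4 rose and 2 fell. Enterochromaffin-like markers, which include CHGA, fell in 8 of 8 with NKX2-2 KO, to 480 to 530 CPM in KO libraries, against 2050 to 2090 CPM in WT. With CLEC16A KO, 7 of 8 fell and 1 rose. Intestine markers fell in 4 of 5 with NKX2-2 KO and rose in 6 of 6 with CLEC16A KO. Liver and duct markers each had 2 higher and 2 lower with NKX2-2 KO, and rose in 5 of 7 and 6 of 6 with CLEC16A KO. Acinar markers rose in 4 of 4 with NKX2-2 KO, and with CLEC16A KO 2 of 5 rose and 1 fell. Endothelium and blood markers had 3 of 4 higher and 1 lower with NKX2-2 KO, and 1 of 4 higher and 2 lower with CLEC16A KO. Mitochondrially encoded genes took 9.13% to 10.2% of counts in NKX2-2 KO and 7.05% to 8.02% in NKX2-2 WT libraries, and are at 0 in the CLEC16A tables. The part of depth and of these shares in the results was not tested.

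The first comparison set the channel genes of each KO against its own WT, with edgeR's quasi-likelihood test and an adjusted p under 0.05 over all genes as the threshold. A total of 102 members passed the filter on low counts in the NKX2-2 experiment and 104 in the CLEC16A experiment, with 96 in both and 24 in neither. Members that did not pass stayed at or under 0.585 and 0.382 CPM, and 5 had 0 counts in all 12 libraries. With NKX2-2 KO, 27 members were called higher and 33 lower and 42 were not called, where 33.4% of all tested genes were called (16.6% higher, 16.8% lower). The median log2 fold change was -0.02 over the members tested and 0.03 over all genes tested. With CLEC16A KO, 12 rose, 55 fell and 37 did not pass, where 45.0% of all tested genes were called (23.7% higher, 21.3% lower). Their median was -0.62, and that of all genes tested was -0.01. Some members reached 10 counts per library in one group alone, and for these the filter itself favours a difference. There were 19 in the NKX2-2 experiment, 8 of them called, and 12 in the CLEC16A experiment, 4 of them called. The groups did not overlap in 67 of 102 members with NKX2-2 KO (45.5% of all genes tested) and in 73 of 104 with CLEC16A KO (53.8%).

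**Figure D1:**
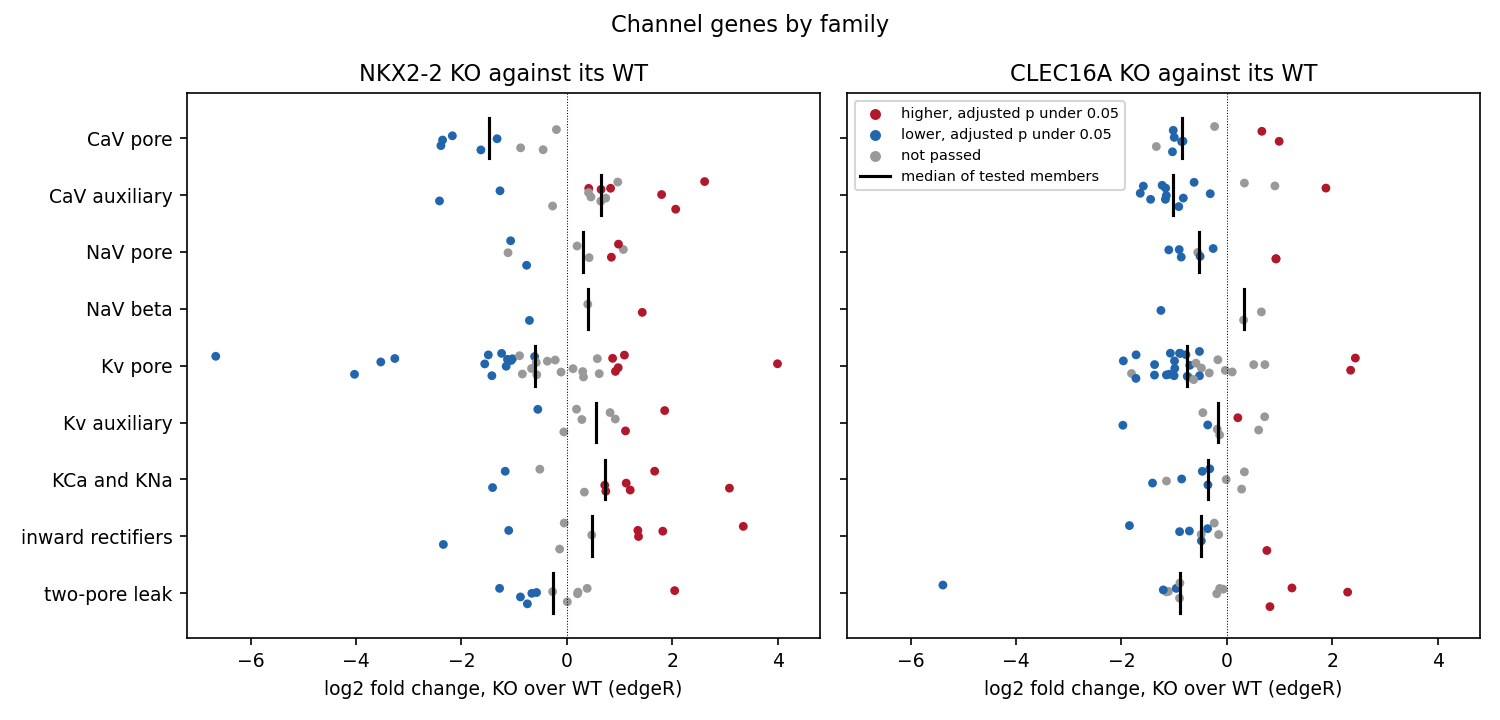
Log2 fold change of each tested channel gene (KO over WT, edgeR), by family, for the NKX2-2 experiment (left) and the CLEC16A experiment (right). Each point is a gene, coloured by whether it passed at an adjusted p under 0.05, and black bars are family medians. CaV pore genes had a median of -1.48 and CaV auxiliary genes one of 0.65 with NKX2-2 KO, whereas both medians were negative with CLEC16A KO.

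Levels were compared between genes on the deposited TPM scale, which accounts for transcript length. KCNK16 and KCNK17, neighbouring two-pore potassium channel genes expressed in pancreatic islets, were the most abundant members in the WT libraries of both experiments. KCNK16 averaged 84.2 ± 7.82 TPM in NKX2-2 KO and 123 ± 4.92 TPM in NKX2-2 WT libraries (SD, n = 3 each, as for all means here). It averaged 182 ± 17.5 TPM in CLEC16A KO and 389 ± 38.6 TPM in CLEC16A WT libraries. KCNK17 followed with 54.3 ± 9.35 TPM in NKX2-2 KO and 64.7 ± 3.07 TPM in NKX2-2 WT. It had 67.1 ± 11.0 TPM in CLEC16A KO and 168 ± 17.0 TPM in CLEC16A WT. In CLEC16A KO libraries KCNG1 stood above KCNK17, at 97.0 ± 10.3 TPM. TPM levels are not compared across experiments, because the listed genes add up to different parts of the TPM total there. The next in the order of NKX2-2 WT levels were KCNH6, CACNA2D1, KCNMA1 and KCNK5, each of which overlapped its neighbour. In CLEC16A WT libraries CACNA1A, at 94.5 ± 9.24 TPM, and CACNA1H, at 77.4 ± 3.06 TPM, came next, without overlap. Summed over all members, TPM in NKX2-2 KO libraries was 0.82 times that in their WT libraries, and the ratio was 0.63 for CLEC16A.

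**Figure D2:**
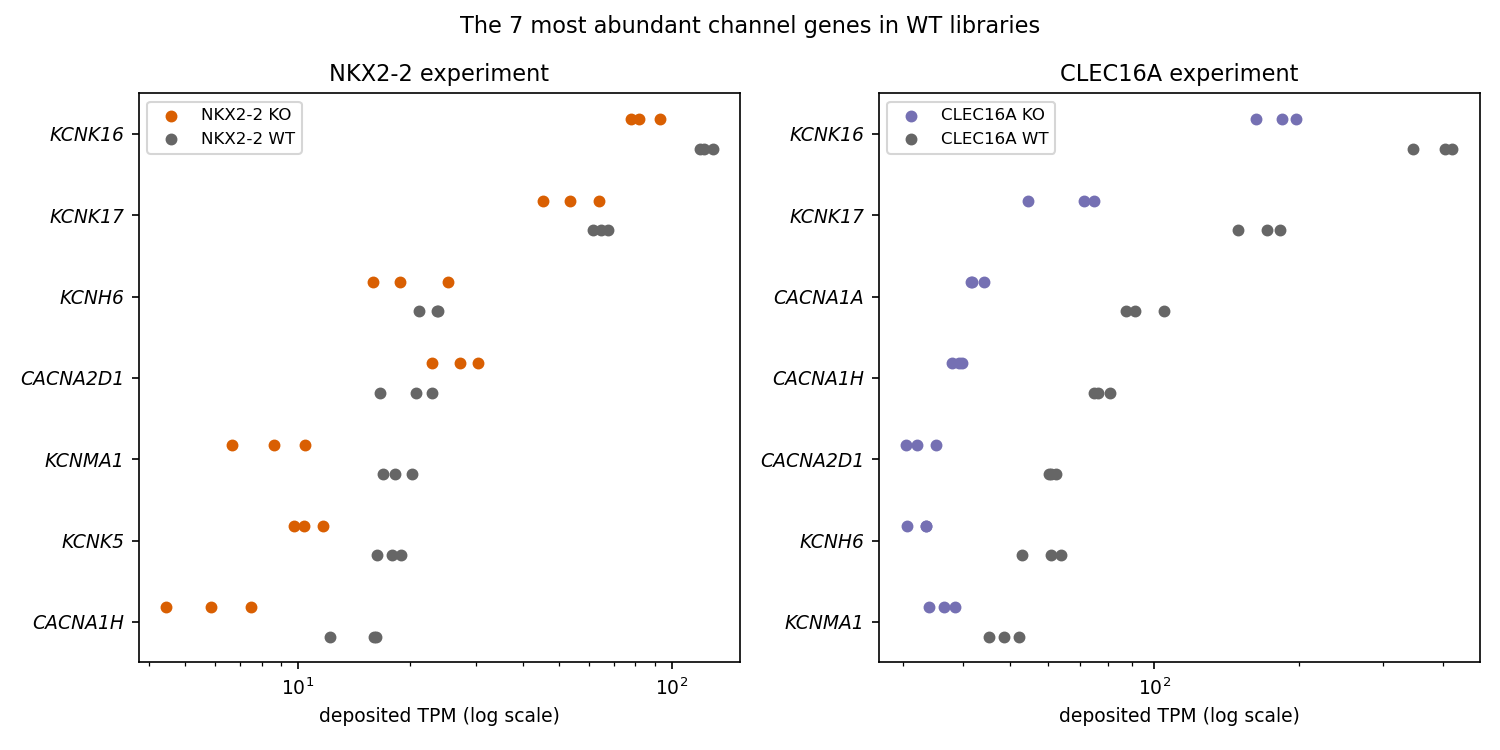
Deposited TPM (log scale) in each of 3 KO (upper row of each gene, coloured) and 3 WT libraries (lower row, grey) for the 7 channel genes most abundant in WT, by experiment. KCNK16 and KCNK17 lead in both WT groups, and the KO points of KCNMA1 and CACNA1H lie left of WT in both experiments.

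Calcium channel pore genes fell with NKX2-2 KO in 5 of the 8 tested, and none rose. That is 62.5% lower, where 16.8% of all genes fell and 16.6% rose. CACNA1B, the N-type pore, had 5.66, 3.90 and 4.21 CPM in NKX2-2 KO libraries, against 26, 27.3 and 18.3 CPM in NKX2-2 WT libraries. The groups were far apart, and it fell by 2.39 on the log2 scale (SE 0.19, adjusted p = 8.99e-07). CACNA1D, an L-type pore of endocrine cells, had 4.70, 3.95 and 2.48 CPM in NKX2-2 KO and 18.9, 18.7 and 12.5 CPM in NKX2-2 WT libraries. It fell by 2.17 on the log2 scale (SE 0.23, adjusted p = 9.26e-06), and the libraries numbered 3 were lowest in both groups. CACNA1A, the P/Q-type pore, had 31.4, 22.7 and 16.7 CPM in NKX2-2 KO and 81.6, 86.2 and 50.7 CPM in NKX2-2 WT libraries, and fell too (-1.63, SE 0.23, adjusted p = 1.37e-04). CACNA1H, a T-type pore that opens at low voltage, fell by 1.32 on the log2 scale (SE 0.16, adjusted p = 3.15e-05). The L-type pore CACNA1C was not called, at 15.2 ± 3.12 CPM in NKX2-2 KO and 17.4 ± 4.05 CPM in NKX2-2 WT. It made up 9.14% ± 0.263 of all CaV pore TPM in NKX2-2 KO and 3.66% ± 0.123 in NKX2-2 WT. The pore genes together fell to 12.6 ± 3.75 TPM in NKX2-2 KO, against 34.3 ± 5.22 TPM in NKX2-2 WT.

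With CLEC16A KO, 5 of the 9 pore genes tested fell and 2 rose. The 22.2% that rose is near the 23.7% of all genes, and 55.6% fell, against 21.3%. CACNA1A had 98.3, 98.4 and 95.3 CPM in CLEC16A KO and 213, 182 and 195 CPM in CLEC16A WT libraries (-1.02, SE 0.07, adjusted p = 2.44e-11). CACNA1C, CACNA1D, CACNA1B and CACNA1H also fell, by 1.03, 1.00, 0.83 and 0.86 on the log2 scale. The exception was CACNA1G, the other abundant T-type pore (ENSG00000006283.18, GRCh38 chromosome 17, 50561068 to 50627474, plus strand). It had 73.4, 62.1 and 83.1 CPM in CLEC16A KO libraries, against 37.8, 35.7 and 36.3 CPM in CLEC16A WT libraries, and rose (log2 fold change 0.99, SE 0.09, adjusted p = 5.01e-09). In NKX2-2 KO libraries it had 6.02, 4.00 and 4.10 CPM, against 25.1, 28.2 and 18.7 CPM in NKX2-2 WT libraries, and fell (-2.36, SE 0.20, adjusted p = 1.23e-06). The difference of the effects was -3.34 (SE 0.21, adjusted p = 4.21e-11). CACNA1G thus took 16.7% ± 1.72 of CaV pore TPM in CLEC16A KO and 4.92% ± 0.566 in CLEC16A WT, and T-type genes together 51.3% ± 0.615 in CLEC16A KO and 41.9% ± 1.88 in CLEC16A WT. CACNA1E, the R-type pore, was not called with CLEC16A KO (22 counts over the 3 KO and 60 over the 3 WT libraries) and was too low to test in the NKX2-2 experiment. CACNA1F, the L-type pore of the retina, was at 2.61 ± 0.211 CPM in CLEC16A KO and 1.64 ± 0.0974 CPM in CLEC16A WT, and its call (0.67, SE 0.25, adjusted p = 0.0315) was lost without any of 5 single libraries and without the count filter (0.66, adjusted p = 0.0644).

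Among auxiliary calcium channel genes, 6 of 14 tested rose and 2 fell with NKX2-2 KO. With CLEC16A KO, 1 of 14 rose and 11 fell. The 14.3% that fell with NKX2-2 KO is near the 16.8% of all genes, and 42.9% rose, against 16.6%. With CLEC16A KO 78.6% fell and 7.14% rose, against 21.3% and 23.7% of all genes. CACNB3, which encodes a cytoplasmic beta subunit, had 34.5, 34.1 and 32.2 CPM in NKX2-2 KO and 17.9, 18.9 and 19.8 CPM in NKX2-2 WT libraries, and rose by 0.83 on the log2 scale (SE 0.11, adjusted p = 7.19e-05). With CLEC16A KO it fell by 0.31 (SE 0.08, adjusted p = 0.00423). CACNA2D1, the most abundant alpha2delta subunit gene, had 265, 292 and 242 CPM in NKX2-2 KO and 224, 205 and 170 CPM in NKX2-2 WT libraries (0.42, SE 0.12, adjusted p = 0.0177). It no longer passed when KO replicate 2 (0.34, adjusted p = 0.101), WT replicate 2 (0.42, with 0.0552) or WT replicate 3 (0.31, with 0.0610) was left out. CLEC16A KO libraries held 133, 123 and 128 CPM of it, against 224, 231 and 225 CPM in CLEC16A WT libraries, without overlap (-0.82, SE 0.06, adjusted p = 1.90e-10).

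The CACNG genes encode transmembrane gamma subunits, several of which are better known as partners of glutamate receptors. CACNG6 had 13.2, 13.3 and 13.4 CPM in NKX2-2 KO and 2.74, 3.18 and 3.61 CPM in NKX2-2 WT libraries (2.07, SE 0.16, adjusted p = 7.67e-07). In CLEC16A KO it had 1.33, 1.71 and 1.83 CPM, against 3.56, 3.62 and 3.70 CPM in CLEC16A WT (-1.16, SE 0.23, adjusted p = 2.27e-04). CACNG7 likewise rose with NKX2-2 KO (2.62, SE 0.43, adjusted p = 4.38e-04) and fell with CLEC16A KO (-1.58, SE 0.33, adjusted p = 4.48e-04), at under 5 CPM on average in each group. CACNG5 fell in both, to 2.83 ± 0.532 CPM in NKX2-2 KO against 15.1 ± 3.29 CPM in NKX2-2 WT, and to 11.1 ± 1.71 CPM in CLEC16A KO against 25.9 ± 3.10 CPM in CLEC16A WT. CACNG3 rose with CLEC16A KO, where it had 2.71, 3.01 and 3.34 CPM, against 1.32, 0.422 and 0.698 CPM in CLEC16A WT (1.88, SE 0.33, adjusted p = 5.54e-05). Its fall with NKX2-2 KO (-1.27, SE 0.40, adjusted p = 0.0273) was lost in 4 of the fits that leave out 1 library. CACNG4, at 79.8 ± 19.2 CPM in NKX2-2 KO and 50.8 ± 2.55 CPM in NKX2-2 WT, rose by 0.65 (SE 0.15, adjusted p = 0.00443), or 0.43 without KO replicate 1. CACNA2D4, another alpha2delta gene, rose with NKX2-2 KO to 4.22 ± 0.163 CPM, against 1.20 ± 0.401 CPM in NKX2-2 WT. CACNA2D2 fell with CLEC16A KO to 9.63, 12.2 and 10.9 CPM, against 30.6, 27.5 and 31.2 CPM in CLEC16A WT (-1.45, SE 0.11, adjusted p = 2.17e-10). CACNB2, a beta subunit gene, fell with CLEC16A KO (-0.91, SE 0.14, adjusted p = 1.11e-05) and was not called with NKX2-2 KO (0.41, SE 0.18, adjusted p = 0.105). It passed there without KO replicate 3 (0.59, adjusted p = 0.00919) and without both libraries numbered 3 (0.56, adjusted p = 0.0174). Blocking on replicate number also gave CACNB2 a call there (0.40, adjusted p = 0.0198), although numbers 1 and 2 did not pair the NKX2-2 libraries.

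Of the sodium channel genes tested, 54.5% were called with NKX2-2 KO and 72.7% with CLEC16A KO. The shares over all members tested were 58.8% and 64.4%, and those over all genes tested 33.4% and 45.0%. With NKX2-2 KO, 2 of 8 pore genes rose and 2 fell, where 16.6% of all genes rose and 16.8% fell. With CLEC16A KO, 2 of 8 rose and 5 fell. The share that rose there is near the 23.7% of all genes, and 62.5% fell, against 21.3%. SCN3A, the most abundant sodium channel pore gene by mean WT TPM, had 36.9, 36.5 and 33.6 CPM in NKX2-2 KO and 90.6, 67.9 and 65.2 CPM in NKX2-2 WT libraries. It fell by 1.06 on the log2 scale (SE 0.13, adjusted p = 4.55e-05) and made up 37.8% ± 0.398 of sodium channel pore TPM in NKX2-2 KO and 60.6% ± 1.54 in NKX2-2 WT. With CLEC16A KO it fell by 0.51 (SE 0.08, adjusted p = 2.32e-05). Reads of SCN3A cannot be separated from those of an antisense gene that overlaps its exons. SCN2A, a neuronal pore gene, rose with NKX2-2 KO to 5.12, 5.90 and 5.13 CPM, against 3.89, 2.63 and 2.43 CPM in NKX2-2 WT (0.85, SE 0.22, adjusted p = 0.00906), and was not called with CLEC16A KO (-0.55, SE 0.32, adjusted p = 0.178). SCN9A fell with CLEC16A KO (-0.90, SE 0.12, adjusted p = 8.91e-07) but was not called with NKX2-2 KO (0.20, SE 0.13, adjusted p = 0.290). SCN3B, a beta subunit gene, fell with CLEC16A KO to 12.2 ± 0.187 CPM, against 29 ± 1.28 CPM in CLEC16A WT. The calls of SCN3B and SCN8A with NKX2-2 KO, and of SCN8A and SCN11A with CLEC16A KO, were each lost without at least 1 library. For SCN11A it was KO replicate 3 (0.57 in place of 0.93, adjusted p = 0.118). For SCN3B it was WT replicate 1 (-0.59 in place of -0.71, adjusted p = 0.0730).

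Voltage-gated potassium channel pore genes fell in 13 of 31 and rose in 5 of 31 with NKX2-2 KO. With CLEC16A KO, 18 of 31 fell and 2 rose. The 16.1% that rose with NKX2-2 KO is near the 16.6% of all genes, and 41.9% fell, against 16.8%. With CLEC16A KO 58.1% fell and 6.45% rose, against 21.3% and 23.7% of all genes. KCNS3, a modifier subunit that does not form channels on its own, had 3.01, 1.65 and 2.42 CPM in NKX2-2 KO and 23.4, 19.3 and 24.7 CPM in NKX2-2 WT libraries (-3.26, SE 0.20, adjusted p = 9.91e-08). Its fall with CLEC16A KO was -1.07 (SE 0.11, adjusted p = 3.98e-08). KCNQ3, a pore of the M-current, fell with CLEC16A KO (-1.72, SE 0.23, adjusted p = 1.30e-06) and was at -0.67 with NKX2-2 KO (SE 0.28, adjusted p = 0.0878), which passed without KO replicate 1 (-0.93, adjusted p = 0.0387). The NKX2-2 change of KCNQ3 also passed with blocking on replicate number (-0.68, adjusted p = 0.0287), although numbers 1 and 2 did not pair those libraries. KCNQ1, a pore of cardiac and epithelial cells, passed in neither experiment. KCNH5, of the EAG family, fell in both (-1.42 with NKX2-2 KO and -1.96 with CLEC16A KO). KCNQ5 and KCNA5 held 4 and 8 counts over the 3 NKX2-2 KO libraries, against 77 and 103 over the 3 NKX2-2 WT libraries.

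KCNB2, a pore of the delayed rectifier current, fell in both experiments, by 1.03 with NKX2-2 KO (SE 0.15, adjusted p = 1.17e-04) and by 0.99 with CLEC16A KO (SE 0.11, adjusted p = 9.30e-08), with a difference of -0.04 (SE 0.18, adjusted p = 0.908). KCNH2, a pore of the ERG current, was not called with NKX2-2 KO, at 75.3 ± 6.69 CPM against 69.4 ± 0.607 CPM in NKX2-2 WT. It fell with CLEC16A KO (-0.90, SE 0.08, adjusted p = 5.76e-09), as did KCNH6 (-0.77, SE 0.07, adjusted p = 8.19e-09). KCNH6 was at -0.22 with NKX2-2 KO (SE 0.14, adjusted p = 0.241), which passed without KO replicate 1 (-0.43, adjusted p = 0.00742). It also passed with blocking on replicate number (-0.24, adjusted p = 0.0259), although numbers 1 and 2 did not pair the NKX2-2 libraries.

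KCNG1, another modifier subunit gene (ENSG00000026559.14, GRCh38 chromosome 20, 51003656 to 51023129, minus strand), showed the strongest difference of effects by p among the members. It had 70.8, 68.7 and 84.2 CPM in CLEC16A KO and 13.7, 15.6 and 14.5 CPM in CLEC16A WT libraries (2.35, SE 0.09, adjusted p = 3.33e-15). In NKX2-2 KO libraries it had 6.20, 7.75 and 7.44 CPM, against 16.5, 20.6 and 23.2 CPM in NKX2-2 WT (-1.49, SE 0.16, adjusted p = 1.14e-05). The difference was -3.83 (SE 0.19, adjusted p = 4.77e-13). KCNG1 made up 47.5% ± 3.47 of all voltage-gated potassium pore TPM in CLEC16A KO and 8.59% ± 0.852 in CLEC16A WT. KCNV1, a modifier of the same kind on chromosome 8, had 14.9, 15.6 and 13.1 CPM in NKX2-2 KO and 1.20, 0.910 and 0.564 CPM in NKX2-2 WT libraries (4.00, SE 0.23, adjusted p = 5.52e-08). In the CLEC16A experiment it was low, at 0.323, 0.373 and 0.257 CPM in KO and 1.15, 1.03 and 0.304 CPM in WT libraries, and its call (-1.37, adjusted p = 0.0392) was lost in 5 of the fits that leave out 1 library.

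Among auxiliary subunits of these channels, KCNAB1, a cytoplasmic beta subunit gene, rose with NKX2-2 KO to 37.7, 51.4 and 51.2 CPM, against 13.5, 12.3 and 12.9 CPM in NKX2-2 WT (1.86, SE 0.14, adjusted p = 5.96e-07). It then held 39.6% ± 5.17 of the auxiliary subunit TPM in NKX2-2 KO and 13.8% ± 1.04 in NKX2-2 WT. KCNIP1, a calcium-binding partner of the KCND pores, fell with CLEC16A KO to 0.922 ± 0.0651 CPM, against 3.62 ± 0.594 CPM in CLEC16A WT (-1.97, SE 0.26, adjusted p = 1.22e-06). KCNE4, an inhibitory subunit, fell with NKX2-2 KO (-0.55, SE 0.11, adjusted p = 0.00168), and its rise with CLEC16A KO (0.21, SE 0.08, adjusted p = 0.0463) was lost without any of 5 single libraries.

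**Figure D3:**
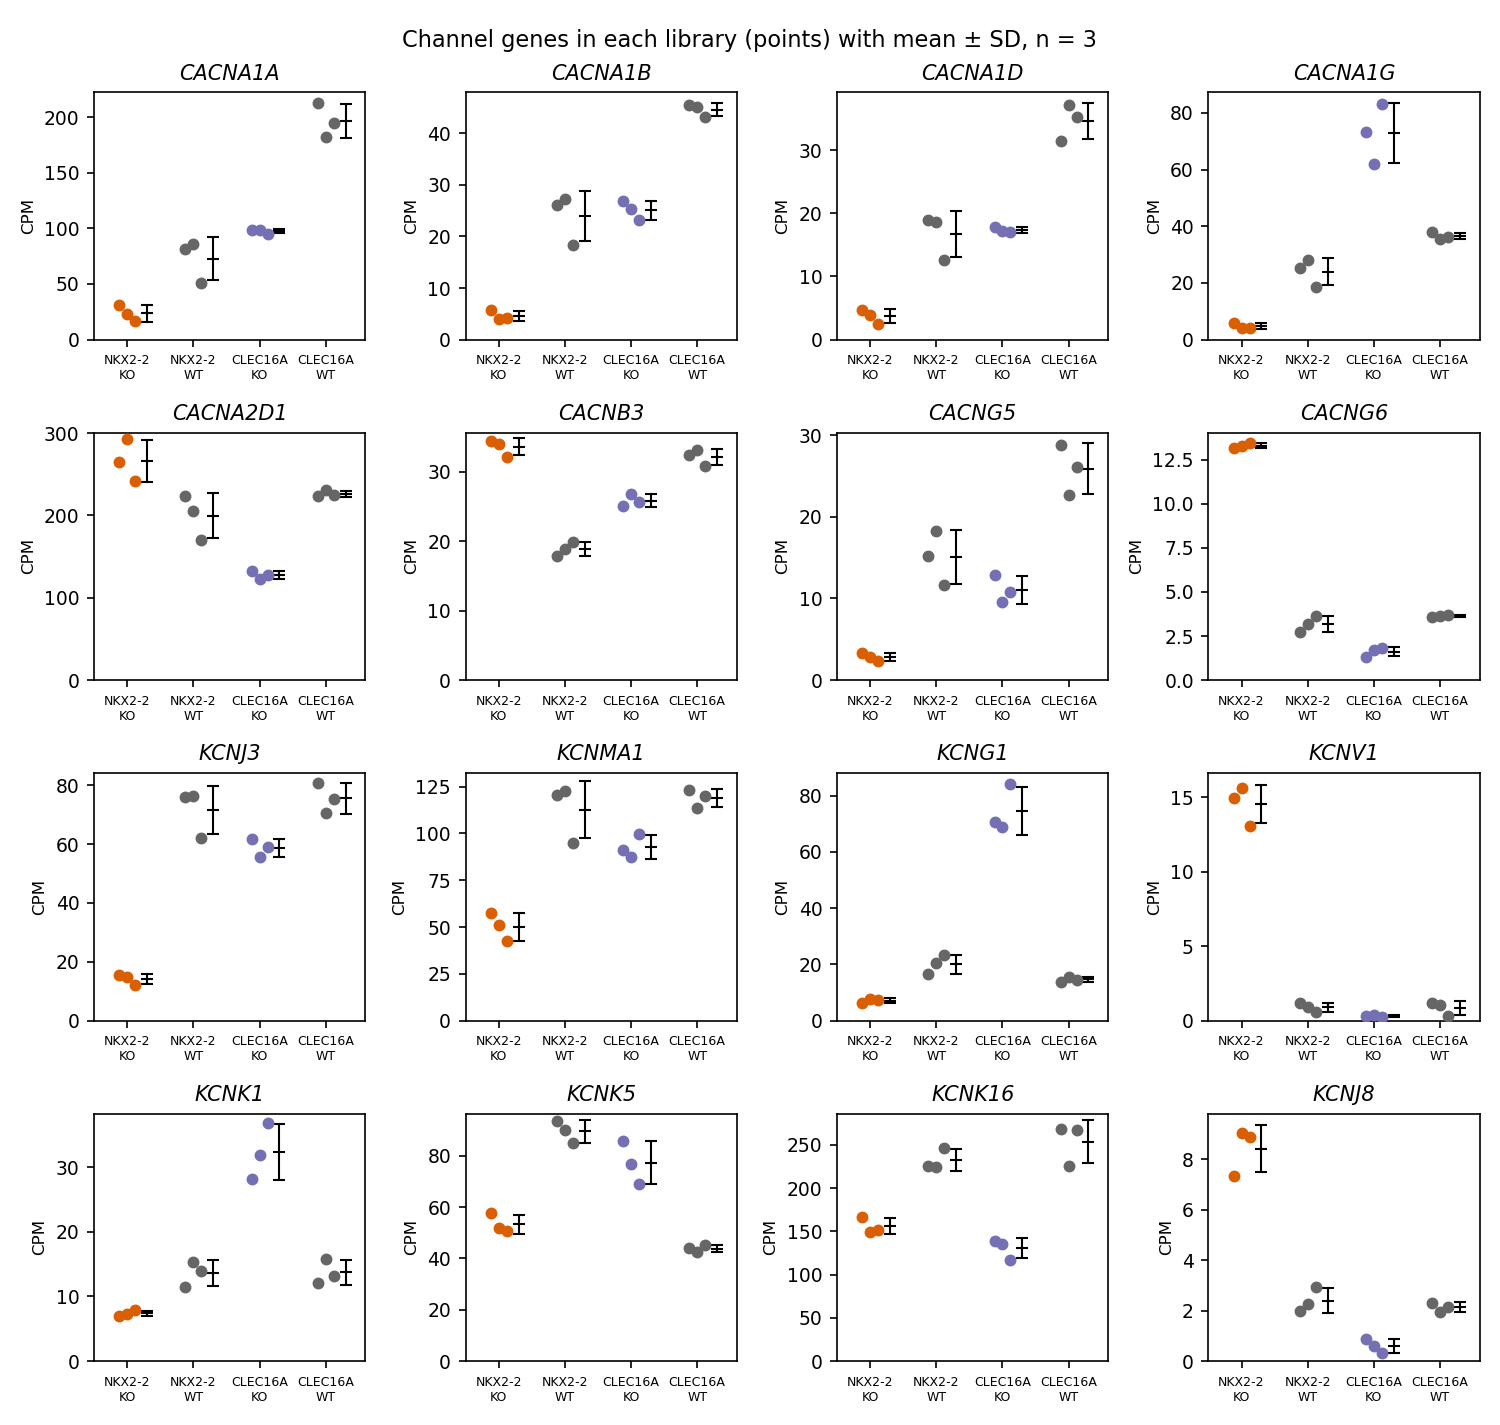
CPM of 16 channel genes in each library (points) with mean ± SD (bars), n = 3 per group, with NKX2-2 KO, NKX2-2 WT, CLEC16A KO and CLEC16A WT from left to right. KCNG1, CACNA1G, KCNK1 and KCNK5 are low in NKX2-2 KO and high in CLEC16A KO relative to their own WT, and KCNV1 is high in NKX2-2 KO alone.

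Potassium channel genes activated by calcium or sodium rose in 6 and fell in 2 of 10 with NKX2-2 KO, and fell in 5 of 9 with CLEC16A KO with none higher. The share that fell with NKX2-2 KO is near the 16.8% of all genes, and the share that rose is above their 16.6%. With CLEC16A KO 55.6% fell, against 21.3% of all genes, of which 23.7% rose. Sodium-activated in this family are KCNT1 and KCNT2, named after their values were seen. They rose by 1.20 and 0.72 on the log2 scale with NKX2-2 KO. With CLEC16A KO, KCNT2 fell by 0.32 and KCNT1, at -1.14, did not pass. KCNMA1, the large-conductance pore gene, had 57.2, 51.0 and 42.3 CPM in NKX2-2 KO and 120, 123 and 95.1 CPM in NKX2-2 WT libraries (-1.17, SE 0.14, adjusted p = 2.26e-05). It fell by 0.36 with CLEC16A KO (SE 0.07, adjusted p = 1.40e-04). KCNMA1 made up 36.2% ± 4.53 of the TPM of this family in NKX2-2 KO and 70.4% ± 1.97 in NKX2-2 WT. KCNN2, a small-conductance pore gene, had 8.19, 8.10 and 7.04 CPM in NKX2-2 KO against 0.961, 0.758 and 1.02 CPM in NKX2-2 WT (3.09, SE 0.22, adjusted p = 3.05e-07), and was not tested in the CLEC16A experiment, where it averaged 0.0828 CPM in KO and 0.0885 CPM in WT libraries. KCNMB2, a large-conductance auxiliary gene, rose with NKX2-2 KO to 6.14 ± 1.02 CPM, against 1.93 ± 0.242 CPM in NKX2-2 WT (1.67, SE 0.21, adjusted p = 5.12e-05), and fell with CLEC16A KO to 1.05 ± 0.164 CPM, against 2.80 ± 0.558 CPM in CLEC16A WT. It shares 1138 of its 3542 exon bases with another gene, whose reads cannot be separated from its own. KCNN4 passed in neither experiment.

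Inward rectifiers rose in 4 and fell in 2 of 9 with NKX2-2 KO, and rose in 1 and fell in 5 of 9 with CLEC16A KO. With NKX2-2 KO that is 44.4% and 22.2%, where 16.6% of all genes rose and 16.8% fell. With CLEC16A KO it is 11.1% and 55.6%, against 23.7% and 21.3% of all genes. KCNJ3, a subunit of the G protein-gated channels, had 15.5, 14.7 and 12.2 CPM in NKX2-2 KO and 76.1, 76.5 and 62.1 CPM in NKX2-2 WT libraries (-2.34, SE 0.13, adjusted p = 5.90e-08). Its partner gene KCNJ5 fell too, to 18.8 ± 2.01 CPM in NKX2-2 KO against 40.3 ± 3.87 CPM in NKX2-2 WT, whereas KCNJ6 was not called (-0.13, SE 0.14, adjusted p = 0.487). KCNJ6 fell with CLEC16A KO (-0.89, SE 0.16, adjusted p = 1.24e-04). With CLEC16A KO, KCNJ3 had 61.7, 55.6 and 58.9 CPM, against 80.8, 70.5 and 75.3 CPM in CLEC16A WT (-0.36, SE 0.07, adjusted p = 2.74e-04), and the difference of the effects was -1.97 (SE 0.15, adjusted p = 4.58e-10). KCNJ16 rose with CLEC16A KO (0.76, SE 0.14, adjusted p = 1.42e-04). KCNJ15, from low counts, had 1.5, 1.90 and 1.5 CPM in NKX2-2 KO and 0.0481, 0.202 and 0.226 CPM in NKX2-2 WT libraries. KCNJ12 rose with NKX2-2 KO to 10.8 ± 1.51 CPM, against 4.21 ± 0.286 CPM in NKX2-2 WT, and is uncertain because KCNJ18, its near-identical copy, was at 0 counts in every library.

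KCNJ8, a pore of ATP-sensitive channels known from vascular smooth muscle, had 7.34, 9.05 and 8.89 CPM in NKX2-2 KO and 1.97, 2.27 and 2.93 CPM in NKX2-2 WT libraries (1.82, SE 0.20, adjusted p = 1.45e-05). In CLEC16A KO it had 0.873, 0.590 and 0.321 CPM, against 2.32, 1.96 and 2.16 CPM in CLEC16A WT (-1.85, SE 0.35, adjusted p = 1.47e-04). The mesenchyme and smooth muscle markers moved the same way in each experiment, and their part in this was not tested. The promoter of KCNJ8 is shown because, of the 22 members called in opposite directions, 15 had a RefSeq promoter (GRCh38.p14, 300 bases) and only KCNJ8 and KCNK1 of those held a searched motif. The motifs were TNAAGTG, the core bound by NKX2 factors, and TGACGT, part of the cyclic AMP response element, on both strands. They occur in 10.2% and 7.98% of 35116 promoters, and in 10 and 8 of the 97 members with one. These members have 149 promoters and each was counted if any of its promoters matched, so the 2 measures are not alike. A match is a description of letters and not a site. The pair was chosen after the values were seen. Capitals mark the match in the promoter of KCNJ8 (chr12:21774657-21774956, minus strand).
KCNJ8: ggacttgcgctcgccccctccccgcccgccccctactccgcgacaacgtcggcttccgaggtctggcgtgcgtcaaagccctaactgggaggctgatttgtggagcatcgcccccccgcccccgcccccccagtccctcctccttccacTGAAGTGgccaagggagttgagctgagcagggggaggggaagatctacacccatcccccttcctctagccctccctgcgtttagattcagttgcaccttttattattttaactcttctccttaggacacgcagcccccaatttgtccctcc

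Two-pore genes fell in 5 and rose in 1 of 11 with NKX2-2 KO, and fell in 3 and rose in 3 of 13 with CLEC16A KO. With NKX2-2 KO 45.5% fell and 9.09% rose, against 16.8% and 16.6% of all genes. The CLEC16A count, 46.2% of those tested, is near the 45.0% called over all genes. KCNK16 had 167, 149 and 152 CPM in NKX2-2 KO and 226, 224 and 247 CPM in NKX2-2 WT libraries (-0.57, SE 0.10, adjusted p = 5.62e-04). In CLEC16A KO it had 138, 136 and 117 CPM, against 269, 225 and 267 CPM in CLEC16A WT (-0.96, SE 0.08, adjusted p = 1.12e-09). KCNK17 fell with CLEC16A KO (-1.20, SE 0.11, adjusted p = 2.88e-07) but was not called with NKX2-2 KO (-0.27, SE 0.12, adjusted p = 0.0978), although it passed there without KO replicate 1 (-0.42, adjusted p = 0.00903). Blocking on replicate number also gave KCNK17 a call there (-0.28, adjusted p = 0.00635), although numbers 1 and 2 did not pair the NKX2-2 libraries. KCNK3, an acid-sensitive leak channel gene, fell with NKX2-2 KO (-0.66, SE 0.11, adjusted p = 4.19e-04). With CLEC16A KO its change of -0.19 (SE 0.08, adjusted p = 0.0514) passed without KO replicate 2 or 3. KCNK12, from low counts, rose with NKX2-2 KO to 1.08, 1.30 and 0.635 CPM, against 0.288, 0.202 and 0.226 CPM in NKX2-2 WT (2.05, SE 0.47, adjusted p = 0.00430). It passed the filter on low counts there through the KO libraries alone, so the filter itself favours this rise.

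KCNK2, a mechanosensitive leak channel gene, had 0.0646, 0.0621 and 0 CPM in CLEC16A KO libraries, against 1.49, 1.81 and 2.49 CPM in CLEC16A WT. Those KO libraries held 4 counts in all and the WT libraries 194 (-5.39, SE 0.59, adjusted p = 8.28e-08). KCNK2 thus passed the filter on low counts there through the WT libraries alone, so the filter itself favours this difference. With NKX2-2 KO, KCNK2 was at 1.28 ± 0.297 CPM, against 1.29 ± 0.320 CPM in NKX2-2 WT. The difference of the effects was 5.37 (SE 0.68, adjusted p = 1.29e-06). KCNK6 rose with CLEC16A KO to 8.34, 7.24 and 10.9 CPM, against 2.27, 2.26 and 0.850 CPM in CLEC16A WT (2.29, SE 0.28, adjusted p = 7.76e-06). KCNK5, an alkaline-activated leak channel gene, had 85.9, 76.8 and 69.1 CPM in CLEC16A KO and 43.9, 42.4 and 45.1 CPM in CLEC16A WT libraries (0.82, SE 0.08, adjusted p = 1.52e-08). NKX2-2 KO libraries held 57.6, 51.7 and 50.8 CPM of it, against 93.7, 89.9 and 85.0 CPM in NKX2-2 WT (-0.75, SE 0.10, adjusted p = 9.73e-05). KCNK1 rose with CLEC16A KO to 28.2, 31.9 and 36.8 CPM, against 12.1, 15.8 and 13.2 CPM in CLEC16A WT (1.24, SE 0.11, adjusted p = 7.32e-09), and fell with NKX2-2 KO (-0.88, SE 0.15, adjusted p = 6.32e-04). KCNK5 took 11.0% ± 0.572 of two-pore TPM in CLEC16A KO and 3.75% ± 0.198 in CLEC16A WT. The promoter of KCNK1 (chr1:233613856-233614155, plus strand) follows with its TGACGT match, read on the opposite strand, in capitals.
KCNK1: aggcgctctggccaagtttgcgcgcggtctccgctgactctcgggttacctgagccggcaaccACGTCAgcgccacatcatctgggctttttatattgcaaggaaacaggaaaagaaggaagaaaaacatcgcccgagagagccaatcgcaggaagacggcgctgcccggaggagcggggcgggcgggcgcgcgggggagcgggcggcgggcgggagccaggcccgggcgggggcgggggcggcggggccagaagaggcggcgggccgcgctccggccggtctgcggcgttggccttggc

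The second comparison was between the 2 KO effects on the same genes, tested as an interaction. The difference of effects (NKX2-2 KO effect minus CLEC16A KO effect) was higher in 48 and lower in 23 of 112 members tested, where 38.2% of all genes were called (17.8% higher, 20.4% lower). The median difference was 0.56 over the members and 0.04 over all genes. Of the CaV auxiliary genes, 11 of 15 were higher and 2 lower, and the 4 alpha2delta genes were all higher. Among these, CACNA2D4 (2.94, SE 0.99, adjusted p = 0.0224) held only 14 counts in the CLEC16A experiment and was not tested there alone. Its difference lost its call without CLEC16A KO replicate 2, WT replicate 1 or WT replicate 2. The differences of CACNA1H (-0.45, adjusted p = 0.0444), KCNK16 (0.39, adjusted p = 0.0237) and SCN3B (0.55, adjusted p = 0.0499) each lost their call without at least 1 library. Those of KCNJ15, KCNN2 and KCNQ3 did so too. That of CACNA1A (-0.60, adjusted p = 0.124) gained a call without NKX2-2 KO replicate 1 (-0.86, adjusted p = 0.0169) and with blocking on replicate number (-0.61, adjusted p = 0.0369). The numbers did not pair the CLEC16A libraries, nor numbers 1 and 2 the NKX2-2 libraries. Of the 43 members called in both experiments, 22 were called in opposite directions (51.2%), against 57.7% of all genes called in both, so this share is near the background. Of the 96 members tested in both, none was called higher in both, against 3.02% of all genes. Higher with NKX2-2 KO and lower with CLEC16A KO were 16 (16.7%, against 5.08% of all genes). Lower in both were 21 (21.9%, against 5.7%). The reverse, lower with NKX2-2 KO and higher with CLEC16A KO, held for 6 (6.25%), near the 6.8% of all genes. The 6 were CACNA1G, CACNG3, KCNE4, KCNG1, KCNK1 and KCNK5. The 21 included CACNA1A, CACNA1B, CACNA1D, CACNA1H, KCNMA1, KCNJ3 and SCN3A.

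**Figure D4:**
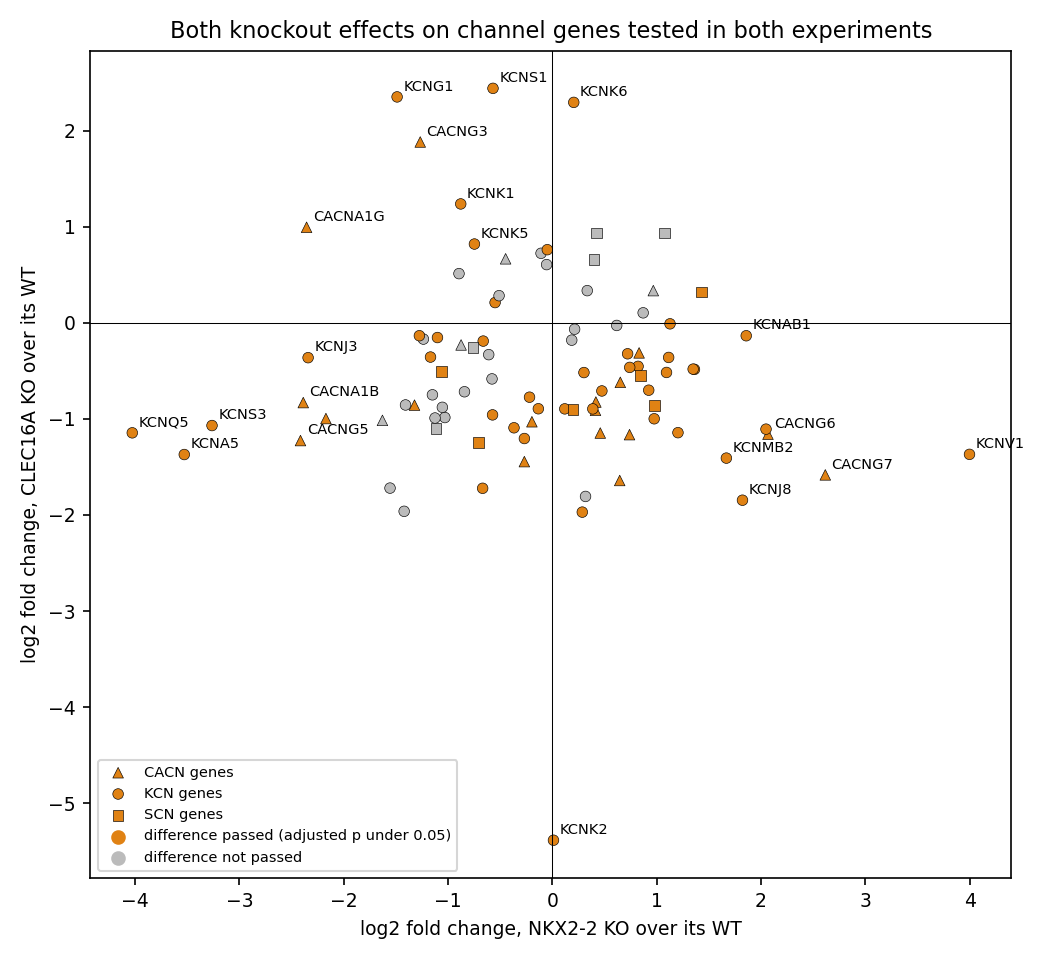
Log2 fold change of each channel gene with NKX2-2 KO (x axis) and with CLEC16A KO (y axis), for the 96 genes tested in both experiments. Symbols give the gene class and orange marks genes whose difference of effects passed. No gene in the upper right quadrant was called higher in both. KCNV1 and CACNG7 lie far to the lower right, KCNG1 and CACNA1G to the upper left, and KCNK2 far below 0 on the y axis alone.

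Excitability genes outside the channel families were counted from a list of 80. With NKX2-2 KO, 18 of 68 tested rose and 27 fell, where 16.6% of all genes rose and 16.8% fell. With CLEC16A KO 18 of 72 rose and 34 fell, where 23.7% of all genes rose and 21.3% fell, so the share that rose is near that of all genes. ABCC8, the sulfonylurea receptor that partners ATP-sensitive pores, fell in both, by 1.05 with NKX2-2 KO (SE 0.16, adjusted p = 1.85e-04) and by 1.25 with CLEC16A KO (SE 0.07, adjusted p = 3.76e-12). STAC, a regulator of CaV channels, fell to 4.45 ± 0.466 CPM in NKX2-2 KO against 42.6 ± 1.23 CPM in NKX2-2 WT.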

How the data were processed

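Bulk RNA-seq of 12 libraries was used. For each experiment the authors deposited raw counts per gene and TPM. Tools named in the submitters' processing notes, with no role given, are fastp 0.22.0, HISAT2 2.2.1 and StringTie 2.1.7, with build hg38. How reads were counted, and whether strand was used, is not given in the sources used here. Overlapping genes therefore cannot be separated. Besides SCN3A and KCNMB2 this holds, among others, for CACNA1C, CACNA1D, CACNB2, CACNA2D2 and SCN9A. They share 1200, 1399, 1168, 732 and 1122 exon bases with antisense genes. Y copies of pseudoautosomal genes (45 rows) were dropped. Of 73 channel genes checked, none had 4-fold fewer counts for its TPM in one experiment than in the other; over all genes 380 were so short in the NKX2-2 and 16 in the CLEC16A tables. Short markers or excitability genes were CHGA, SCG5, MYH11, PRSS1, HCN3 and UNC79, all in the NKX2-2 tables.

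edgeR 4.0.16 in R 4.3.3 fitted each whole table (quasi-likelihood F test, robust, TMM, filterByExpr), with Benjamini-Hochberg adjustment over all genes tested and a threshold of 0.05. The difference of effects is the interaction in a fit of the 12 libraries. SE was taken from the log2 fold change and F. CPM use TMM-scaled library sizes.

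Genes were named if they have a textbook islet role, were among the 10 largest rises or falls of an experiment (called, 1 CPM or more in the higher group, no overlap), the 10 highest in WT TPM or the 6 smallest interaction p. Members and lists were chosen with earlier results of these data known. The alternatives included DESeq2 1.42.0, limma 3.58.1 on log2 TPM, other scalings and filters, blocking on replicate number, a joint fit and leaving out libraries. Some genes that the naming rule picks are not reported here. The fits were tested on simulated counts.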

Additional observations from a re-analysis of the deposited data

Results flagged for a closer look

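For 14 named channel genes the knockout effects were called in opposite directions and the difference between them passed the interaction test. Opposite calls are not particular to channel genes. They made up 51.2% of the members called in both experiments, near the 57.7% of all genes called in both. Higher in NKX2-2 KO and lower in CLEC16A KO, relative to their own WT, were CACNA2D1 (difference of log2 fold changes 1.25), CACNB3 (1.15), CACNG4 (1.28), CACNG6 (3.23), CACNG7 (4.21), KCNJ8 (3.68), KCNMB2 (3.09) and KCNV1 (5.38). Lower in NKX2-2 KO and higher in CLEC16A KO were CACNA1G (-3.34), CACNG3 (-3.14), KCNE4 (-0.75), KCNG1 (-3.83), KCNK1 (-2.11) and KCNK5 (-1.56). Of these, CACNA2D1, CACNG3, KCNE4 and KCNV1 lose a call within one experiment when a single library is left out.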

How the results depend on the processing

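No value turned its sign while called under any alternative. Counts of members higher with NKX2-2 KO were 15 with limma on log2(TPM + 1) without a filter, in place of 27. Members higher with CLEC16A KO were 7 with limma on log2(TPM + 1), 6 on log2(TPM + 0.1) and 7 without a filter, in place of 12. Lower members dropped as well in these fits, to 47, 47 and 45 in place of 55 with CLEC16A KO. With NKX2-2 KO they were 25, 24 and 23 in place of 33. The cause was not tested. Leaving out 1 library gave 23 to 29 higher and 28 to 34 lower members for NKX2-2 KO, 9 to 13 and 50 to 53 for CLEC16A KO, and 44 to 50 and 22 to 27 for the difference. For single named genes, 42 of 960 values lost and 10 gained a call for NKX2-2 KO, 66 and 5 of 876 for CLEC16A KO, and 52 and 13 of 1102 for the difference. Without both NKX2-2 libraries numbered 3, chosen after seeing the data, NKX2-2 KO gave 27 and 33. Upper-quartile scaling moved the median difference of effects over all genes to 0.16, against 0.04 with TMM, and limma on log2(TPM + 0.1) moved the median CLEC16A KO effect to -0.13, against -0.01. With a replicate block, 30 rose and 37 fell with NKX2-2 KO, 11 and 53 with CLEC16A KO, and the difference gave 48 and 24. It called CACNB2 (0.40, adjusted p = 0.0198), KCNH6 (-0.24, adjusted p = 0.0259), KCNK17 (-0.28, adjusted p = 0.00635) and KCNQ3 (-0.68, adjusted p = 0.0287) with NKX2-2 KO, and the difference for CACNA1A (-0.61, adjusted p = 0.0369). Same-numbered libraries had correlations of 0.22, 0.067 and 0.54 in the NKX2-2 and -0.014, 0.0027 and -0.066 in the CLEC16A experiment. The numbers thus do not pair the CLEC16A samples. NKX2-2 KO replicate 3 had -0.39 and -0.32 with WT replicates 1 and 2. NKX2-2 WT replicate 3 had -0.38 and -0.24 with KO replicates 1 and 2. The NKX2-2 libraries numbered 3 therefore moved together, while numbers 1 and 2 were not paired (0.28 for KO 1 with WT 2, 0.25 for KO 2 with WT 1). The main fits do not block on number, and a shared batch was not tested. Precision is limited by low counts for genes under 1 CPM.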
